A study of Mus musculus with 10 samples.

Results

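The genes described here encode the nuclear subunits of mitochondrial oxidative phosphorylation, measured in bone marrow cultures that received adiponectin or vehicle. They were chosen by symbol: every probe set with a single gene symbol that starts with Ndufa, Ndufb, Ndufc, Ndufs, Ndufv, Sdha, Sdhb, Sdhc, Sdhd, Uqcr, Cox4, Cox5, Cox6, Cox7, Cox8 or Atp5 was taken, and the probe set with the highest mean stood for its gene. That gave 93 genes from 119 probe sets, out of 19938 genes with a symbol of their own. The symbols group them as 34 subunits of complex I, 4 of complex II, 8 of complex III, 19 of complex IV, 17 of complex V and 11 assembly factors (Ndufaf1 to Ndufaf7 and Sdhaf1 to Sdhaf4). Ndufa4 and its paralog Ndufa4l2 are counted with complex IV, where the Ndufa4 protein is now placed. Among the 82 subunit genes, 8 are isoforms known mainly from other tissues (Cox4i2, Cox6a2, Cox6b2, Cox7a1, Cox7b2, Cox8b, Cox8c and Ndufa4l2). The respiratory subunits that mitochondrial DNA encodes are not among these genes and were not analysed here.

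Marrow from the long bones of male Swiss mice, aged 4 to 6 weeks, was grown in αMEM medium that held 10% fetal calf serum. Every culture also held calcitriol (active vitamin D), under which bone-resorbing osteoclasts are known to form in marrow cultures. Control cultures received vehicle, and treated cultures received recombinant mouse adiponectin, a hormone of fat cells, at 5 µg/ml. 1 control and 1 treated culture were taken for an Affymetrix mouse array at each of 4, 10, 24, 72 and 120 h, which gave 10 arrays in 5 pairs. The series title names contamination with lipopolysaccharide, a bacterial product that activates macrophages, and in the treated arm adiponectin and a contaminant cannot be told apart. Nothing in the labels ties a culture to an animal, and no arm was repeated at any time. So p-values here cannot be taken as measuring spread between animals or between repeats of a condition. They rest on departures from each fit over the times. In these, culture-to-culture spread, which may be technical, cannot be told apart from change with time that the fit leaves out.

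Oxidative phosphorylation makes most of the ATP of resting cells. Complex I takes electrons from NADH and complex II takes them from succinate, complex III passes them on to cytochrome c, and complex IV hands them to oxygen. Complexes I, III and IV pump protons, and complex V, the ATP synthase, lets them flow back to make ATP. Osteoclasts are known for their many mitochondria, and macrophages that meet lipopolysaccharide are known to shift towards glycolysis.

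All values are the deposited log2 signals of a probe set, so a difference of 1 means a 2-fold change in signal. Brightness differs between probes and was not set against other probes. The arrays' medians over all named genes ran from 8.27 to 8.48, with the 10 h control array the lowest. Neutrophil markers were bright at 4 h and their mean over 12 genes fell over time. It was 13.03 in the control and 12.79 in the treated culture at 4 h, and 10.20 and 10.23 at 120 h. In each arm 11 of the 12 had negative slopes, while Mmp9 went the other way, from 12.82 at 4 h to 14.08 at 120 h in the controls. The mean of the 11 macrophage markers lay between 12.57 and 12.93 on every array, while single markers moved more, such as Mrc1 from 10.11 to 12.92. The 11 osteoclast markers had a mean of 10.17 in the 4 h control and 11.91 in the 120 h control, and at 72 h they stood at 11.89 in the control and 10.85 in the treated culture. Their slopes were positive for 10 of the 11 in the controls and 9 with adiponectin. Itgb3 went the other way, from 12.23 at 4 h to 10.99 at 120 h in the controls. In such mixed cultures a change in the share of a cell type and a change of RNA per cell cannot be told apart.

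As a group, the 93 genes sat low on the early arrays and high on the later ones. Relative to each gene's own mean over the 10 arrays, the median over the genes was -0.06 at 4 h, -0.12 at 10 h, 0.11 at 24 h, 0.14 at 72 h and 0.12 at 120 h in the control cultures. In the adiponectin cultures it was -0.29, -0.11, 0.10, -0.04 and 0.11 at the same times. The corresponding medians over all 19938 genes stayed between -0.08 and 0.06. So 2 treated arrays stand out: the 4 h array, on which the genes were lowest, and the 72 h array, which lay below both its control and the treated arrays on either side of it. The 4 h adiponectin array held the lowest value of the 10 for 54 of the 93 genes (58.1%), against 7.64% of all genes. The highest value lay on the 24 h control array for 27 genes (29%, against 15% of all genes). For 19 genes it lay on the 72 h control array (20.4%, against 5.56% of all genes).

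**Figure D1:**
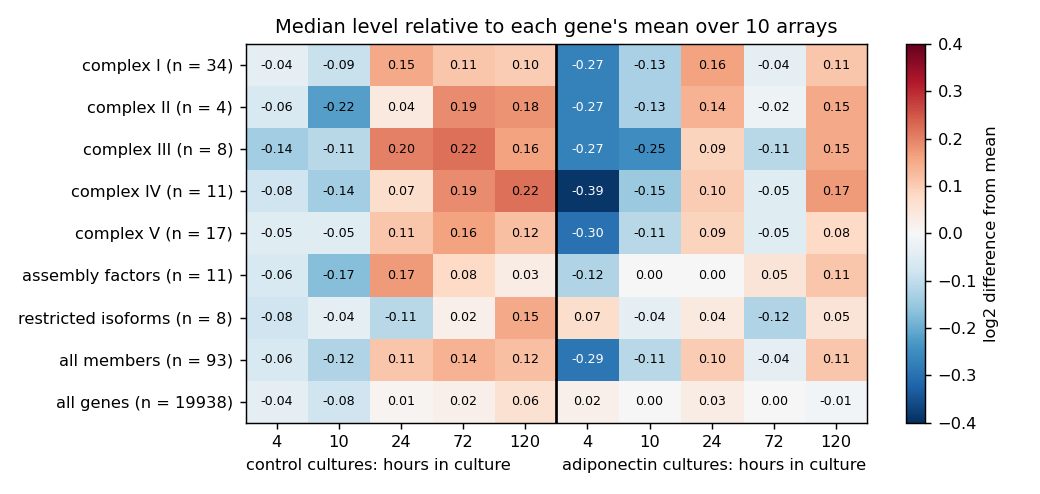
Median log2 difference of the genes of each group from their own mean over 10 arrays (colour and printed value), with control arrays on the left and adiponectin arrays on the right, by hours in culture. The 5 complexes without the tissue-restricted isoforms run from -0.39 to -0.27 on the 4 h adiponectin array, while all genes together stay between -0.08 and 0.06.

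The first question was how each gene ran with time in each arm, tested as a slope on log2 hours with limma over all genes (Benjamini-Hochberg adjusted p under 0.05). In the control cultures 2 of the 93 genes rose, Uqcr10 and Uqcr11, where 4.64% of all genes rose, and 0 fell, where 4.45% of all genes fell. Without the adjustment 19 genes had a positive and 2 a negative slope at p under 0.05, against 16.3% and 10.1% of all genes. In the adiponectin cultures 6 rose (Uqcr11, Uqcr10, Ndufb9, Cox4i1, Sdhd and Atp5g2), where 4.15% of all genes rose, and 1 fell (Cox6a2), where 3.46% of all genes fell. None of these adjusted counts lay far from the share over all genes. Without the adjustment 31 genes had a positive and 2 a negative slope with adiponectin, against 11% and 9.52% of all genes. The sign was more uneven: 81 slopes were positive in the control arm (87.1%, against 65.0% of all genes) and 83 in the adiponectin arm (89.2%, against 44.3%). The slopes were not set against brighter genes alone, so the part of signal level in this contrast was not tested. Median slopes were 0.047 log2 units per doubling of hours in the controls and 0.063 in the treated cultures, against 0.023 and -0.007 over all genes. With each array centred on its median the control median was 0.026, and the all-gene median shifted by -0.02.

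**Figure D2:**
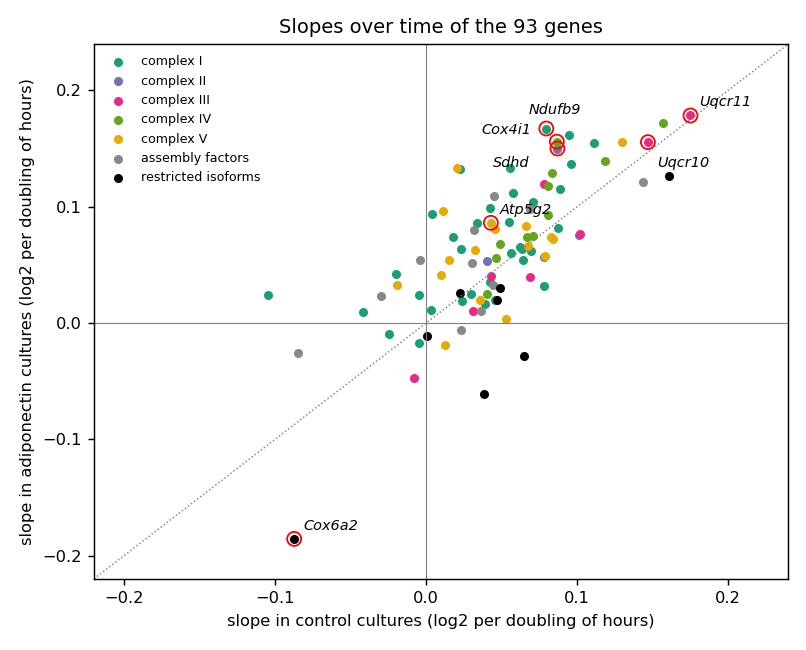
Slope over time of each of the 93 genes, in log2 units per doubling of hours, in control cultures (horizontal) and adiponectin cultures (vertical), coloured by group. Red rings mark genes that passed the test in at least 1 arm, the dotted line marks equal slopes, and Uqcr10 and Uqcr11 lie at the upper right and Cox6a2 at the lower left.

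Complex III held both genes that rose in the 2 arms. Uqcr10 and Uqcr11 encode its smallest supernumerary subunits, which carry no redox centre. Uqcr10 read 9.94, 10.04, 10.36, 10.64 and 10.55 at 4, 10, 24, 72 and 120 h in the controls, and 9.74, 9.77, 10.23, 10.19 and 10.54 with adiponectin. It was lower at 4 and 10 h than at any later time in both arms, with the 72 h treated array below the neighbouring times. Its slope was 0.15 ± 0.03 (SE) per doubling in the controls (adjusted p = 0.0232) and 0.16 ± 0.03 with adiponectin (adjusted p = 0.0183). From 4 to 120 h its signal was 1.53-fold higher in the controls and 1.74-fold higher with adiponectin. Uqcr11 read 10.81, 10.63, 11.17, 11.43 and 11.52 in the controls, and 10.45, 10.71, 11.13, 10.998 and 11.48 with adiponectin. Here too the values at 4 and 10 h were the lowest in each arm. Its slopes were 0.18 ± 0.04 (adjusted p = 0.0283) and 0.18 ± 0.04 (adjusted p = 0.0276), and its signal was 1.63-fold and 2.04-fold higher at 120 h than at 4 h. A second Uqcr11 probe set gave slopes of 0.171 and 0.167. These calls were often lost when a pair, and so 2 arrays, was left out. The Uqcr10 call was lost in both arms without the 4, 10, 72 or 120 h pair. Its adjusted p went up to 0.172 in controls and 0.274 with adiponectin. The Uqcr11 call was lost in both arms without the 72 or 120 h pair (up to 0.268 and 0.37). It was also lost without the 10 h pair in controls or the 4 h pair with adiponectin. The slopes themselves stayed positive with any pair left out. For Uqcr10 they ran from 0.132 to 0.175 in controls and from 0.129 to 0.178 with adiponectin. For Uqcr11 they ran from 0.146 to 0.24 and from 0.145 to 0.214.

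The promoters of the genes that rose are shown, for the 4 genes with a window, because oxidative phosphorylation promoters are known for sites of NRF1 and of ETS factors such as GABPA. RefSeq windows (GRCm38.p6) were given for Uqcr11 and Uqcr10, which rose in both arms, and for Sdhd and Atp5g2, which passed with adiponectin. The sequences run 5′ to 3′ on the minus strand, from 250 bases before the gene start to 20 after it, with matches to GCATGCGC (NRF1), CCGGAAG (ETS) or AAGATGG (YY1) on either strand in capitals.
Uqcr11, chr10:80406802-80407071: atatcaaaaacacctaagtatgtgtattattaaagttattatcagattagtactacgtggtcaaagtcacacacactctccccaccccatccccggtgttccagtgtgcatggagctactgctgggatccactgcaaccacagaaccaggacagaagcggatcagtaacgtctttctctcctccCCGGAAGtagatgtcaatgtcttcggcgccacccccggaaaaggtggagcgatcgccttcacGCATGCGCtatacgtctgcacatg
Uqcr10, chr11:4704325-4704594: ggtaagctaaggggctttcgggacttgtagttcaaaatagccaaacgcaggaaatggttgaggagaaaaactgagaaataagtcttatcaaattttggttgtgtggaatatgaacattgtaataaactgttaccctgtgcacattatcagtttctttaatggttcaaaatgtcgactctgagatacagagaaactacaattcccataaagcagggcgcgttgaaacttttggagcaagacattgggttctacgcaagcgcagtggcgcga
Sdhd, chr9:50603830-50604099: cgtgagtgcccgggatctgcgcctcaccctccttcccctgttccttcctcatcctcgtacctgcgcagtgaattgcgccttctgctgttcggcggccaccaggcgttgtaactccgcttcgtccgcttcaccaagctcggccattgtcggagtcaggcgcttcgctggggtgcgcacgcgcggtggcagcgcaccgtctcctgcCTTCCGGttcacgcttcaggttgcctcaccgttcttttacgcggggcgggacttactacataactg
Atp5g2, chr15:102671028-102671297: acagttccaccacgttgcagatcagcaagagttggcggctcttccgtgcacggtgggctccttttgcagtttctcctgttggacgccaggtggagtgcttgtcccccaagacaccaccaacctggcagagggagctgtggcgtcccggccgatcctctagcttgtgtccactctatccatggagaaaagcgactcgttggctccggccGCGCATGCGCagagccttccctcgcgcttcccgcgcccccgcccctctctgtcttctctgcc
Uqcr11 carried both an ETS and an NRF1 match, Sdhd an ETS match on the opposite strand, Atp5g2 a pair of overlapping NRF1 matches, and the Uqcr10 window none of the 3 motifs.

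Over the whole group, 77 of the 93 genes matched 82 windows of 300 bases, out of 32851 windows given. GCATGCGC, which overlaps its own reverse complement, was found in 14.6% of the group's windows and in 2.71% of all windows. CCGGAAG was found in 25.6% against 8.86%, AAGATGG in 12.2% against 6.34%, GGGCGG (SP1) in 46.3% against 35.7% and TCAAGGTC (ESRRA) in 4.88% against 1.05%. The group's windows were also richer in G and C (a median of 58.5% against 52.7%) and in CpG (6.67 against 2.33 per 100 bases). GCATGCGC, CCGGAAG and GGGCGG hold a CpG themselves, while AAGATGG and TCAAGGTC do not. The part of base composition in these shares was not tested. Of the 10 AAGATGG matches in the group's windows, 8 began 20 to 40 bases after the gene start, a range chosen after the positions were seen, where 14.9% of the 2187 matches in all windows began. These are matches of letters and no measure of binding.

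Of the remaining complex III genes, none passed the slope test in either arm. Uqcrq had the next steepest control slope (0.10 ± 0.03, adjusted p = 0.0955). Uqcrh, the acidic hinge protein that helps cytochrome c to dock, was highest at 24 h in both arms. It read 11.03, 11.04, 11.53, 11.31 and 11.39 in the controls and 10.66, 10.80, 11.40, 11.01 and 11.35 with adiponectin. A moderated F test that asks for any difference between the 5 times, with both arms together, called Uqcrh (adjusted p = 0.0130), Uqcr10 (0.00713) and Uqcr11 (0.00521). That test called 13 of the 93 genes, where 14.4% of all genes were called, and 41 at unadjusted p under 0.05, against 25.4% of all genes. Uqcr10 kept its call under all 10 alternatives run, Uqcr11 lost it without the 120 h pair (0.0512) and Uqcrh without the 24 h pair (0.0509). Uqcrc1, a core protein of complex III, followed no common course in the 2 arms, at 11.53, 11.92, 12.18, 11.63 and 11.62 in the controls and 11.87, 11.38, 11.73, 11.38 and 11.60 with adiponectin. Uqcrfs1, the Rieske iron-sulfur protein, had slopes of 0.069 and 0.040 that did not pass (adjusted p = 0.28 and 0.662).

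Complex IV, cytochrome c oxidase, held the 1 gene that fell. Cox6a2, the heart and muscle isoform of subunit VIa, read 9.54, 9.60, 9.43, 9.27 and 9.14 in the controls and 9.89, 9.70, 9.58, 9.21 and 8.95 with adiponectin. Each treated value was below the one before it, and the 72 and 120 h values were the lowest of both arms. Its slope with adiponectin was -0.19 ± 0.03 (adjusted p = 0.00528), a 1.93-fold lower signal at 120 h than at 4 h, and in the controls -0.087 ± 0.03 (adjusted p = 0.0693). The call was lost without the 72 h pair (0.0619) or the 120 h pair (0.12). Its general partner Cox6a1 had slopes of the other sign that did not pass, 0.12 ± 0.05 (adjusted p = 0.157) and 0.14 ± 0.05 (adjusted p = 0.124). Cox6a1 read 11.39, 11.01, 11.40, 11.85 and 11.70 in the controls and 10.96, 11.25, 11.69, 11.45 and 11.76 with adiponectin.

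Cox4i1, the general isoform of subunit IV, rose with adiponectin (0.16 ± 0.04, adjusted p = 0.0418) from 10.12 at 4 h through 10.62, 10.89 and 10.70 to 11.09 at 120 h. In the controls it read 10.71, 10.65, 11.05, 11.06 and 11.05, with a slope of 0.087 ± 0.04 that did not pass (adjusted p = 0.198). The treated slope rests on the low 4 h array: without that pair it was 0.088 (adjusted p = 0.493), and the call was also lost without the 10, 72 or 120 h pair. Ndufa4 had the steepest complex IV slope with adiponectin that missed the threshold (0.17 ± 0.05, adjusted p = 0.0611, and 0.16 ± 0.05 in the controls, adjusted p = 0.0728). It differed between times in the F test (adjusted p = 0.0272, lost without the 4 or the 120 h pair). Cox7a1, the heart and muscle isoform of subunit VIIa, differed between times as well (adjusted p = 0.041) and was highest at 120 h, at 9.07 and 9.06, against 8.42 and 8.12 at 4 h. Without the 120 h pair the adjusted p was 0.599. Cox7a2l, an assembly factor of respiratory supercomplexes (adjusted p = 0.0147, lost without the 10 or 120 h pair) and Cox5a (adjusted p = 0.0488, lost without any pair but that of 72 h) were further complex IV genes called there, beside Cox6a2 (0.0241). All 11 general complex IV genes had positive slopes in both arms, with medians of 0.081 and 0.093. Cox5b, Cox6b1, Cox6c, Cox7a2, Cox7b and Cox8a had slopes between 0.041 and 0.081 in the controls and between 0.025 and 0.12 with adiponectin, none past the threshold. Among the 8 tissue-restricted isoforms, 7 slopes were positive in the controls and 4 with adiponectin. Beside Cox6a2 and Cox7a1, these 6 isoforms (Cox4i2, Cox6b2, Cox7b2, Cox8b, Cox8c and Ndufa4l2) had slopes of 0.0005 to 0.065 in the controls and -0.061 to 0.030 with adiponectin, and none passed. The Cox7b2 signal ran from 4.83 to 5.26 over the 10 arrays.

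**Figure D3:**
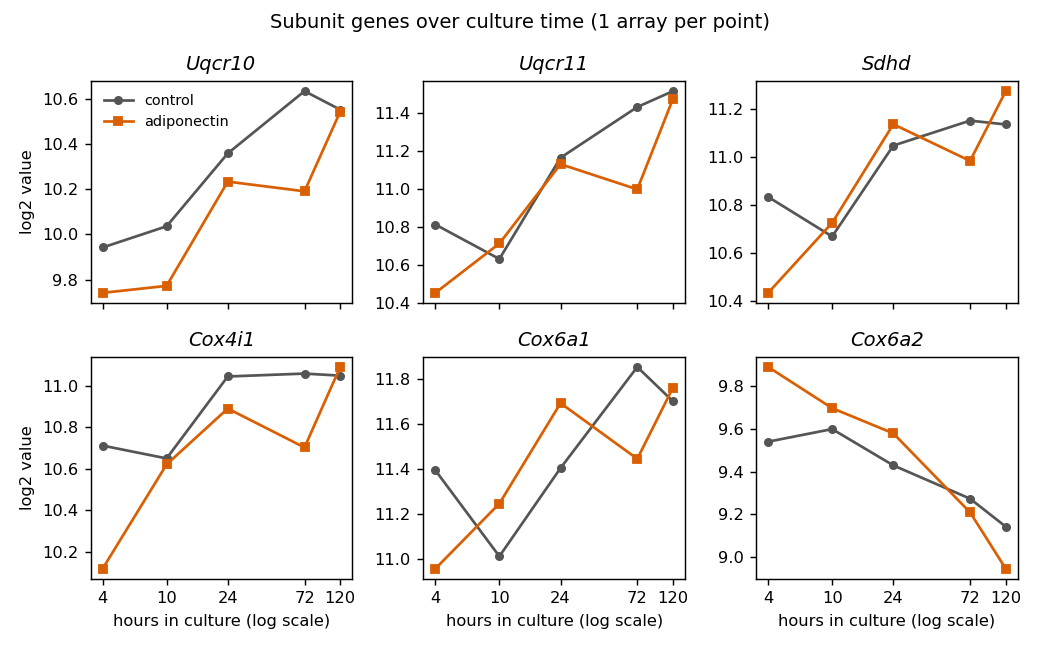
Log2 values of 6 genes at 5 culture times (log time axis, 1 array per point) in control cultures (grey circles) and adiponectin cultures (orange squares). Uqcr10, Uqcr11, Sdhd and Cox4i1 end higher than they begin in both arms, and Cox6a2 ends lower, at 9.14 and 8.95.

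In complex II, which is also succinate dehydrogenase of the citrate cycle, Sdhd rose with adiponectin. Sdhd encodes a membrane anchor, and it read 10.43, 10.72, 11.14, 10.98 and 11.27 in the treated cultures and 10.83, 10.67, 11.05, 11.15 and 11.13 in the controls. The treated slope was 0.15 ± 0.04 (adjusted p = 0.0331) and the control slope 0.087 ± 0.04 (adjusted p = 0.159). The call was lost without the 4, 10, 72 or 120 h pair (adjusted p up to 0.321). Sdhd also passed the F test (adjusted p = 0.0499) and lost that call without any 1 of the 5 pairs. Sdhb, the iron-sulfur subunit, had the steepest control slope of the complex (0.10 ± 0.04, adjusted p = 0.141). Sdha, the flavoprotein that oxidises succinate, had slopes of 0.078 and 0.057 (adjusted p = 0.188 and 0.433), and Sdhc, the other membrane anchor, of 0.040 and 0.054 (0.381 and 0.338). All 4 slopes were positive in each arm.

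Among the 34 complex I genes 1 rose, Ndufb9, a subunit of the membrane arm, and it did so with adiponectin (0.17 ± 0.04, adjusted p = 0.0429). It read 10.51, 11.02, 11.46, 11.16 and 11.52 in the treated cultures and 11.05, 11.003, 11.27, 11.39 and 11.35 in the controls. As with Cox4i1 the 4 h treated array was far below the rest, and without that pair the slope was 0.088 (adjusted p = 0.52). The call was also lost without the 10, 72 or 120 h pair. Ndufb6, also of the membrane arm, had the steepest control slope (0.11 ± 0.05, adjusted p = 0.212). Ndufab1, the mitochondrial acyl carrier protein, which also serves fatty acid synthesis, had a treated slope of 0.16 ± 0.05 (adjusted p = 0.0631). The electron-carrying subunits had slopes that did not pass: 0.070 and 0.062 for Ndufs1 (adjusted p = 0.389 and 0.577), which holds iron-sulfur clusters, and 0.024 and 0.019 for Ndufv1 (0.634 and 0.816), which binds NADH.

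The F test called Ndufs6 (adjusted p = 0.0372) and Ndufa7 (adjusted p = 0.0488) in complex I. Ndufs6 peaked at 24 h, at 9.73, 10.10, 10.33, 9.94 and 9.76 in the controls and 9.70, 9.76, 10.28, 9.89 and 9.78 with adiponectin. Without the 24 h pair its adjusted p was 0.608, and the call was also lost without the 4 or 120 h pair. That of Ndufa7 was lost without any 1 of the 5 pairs. Over the whole group, 36 genes in each arm were highest at 24 h. In the controls 31 genes were highest at 72 h and 24 at 120 h, and with adiponectin 3 and 44. The same counts within an arm were not made for all genes, so these peaks are not shown to be particular to the group.

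Atp5g2 was the gene of complex V that rose, with adiponectin (0.086 ± 0.02, adjusted p = 0.047). It is one of 3 genes (Atp5g1, Atp5g2 and Atp5g3) for the same mature c subunit, which forms the rotor ring of the ATP synthase. Its treated values were 12.43, 12.45, 12.65, 12.74 and 12.84, and its control values 12.66, 12.66, 12.77, 12.88 and 12.81. The control slope was 0.043 (adjusted p = 0.257). This call is the least steady, lost under 9 of 12 alternatives (adjusted p up to 0.45) and without any single pair. Atp5g1 and Atp5g3 had slopes of 0.036 and 0.083 in the controls and 0.020 and 0.074 with adiponectin, none past the threshold. Atp5l, subunit g, had the steepest control slope of complex V (0.13 ± 0.05, adjusted p = 0.138). The catalytic core was flatter, with slopes of 0.053 and 0.0035 for Atp5a1 (alpha subunit, adjusted p = 0.22 and 0.967), 0.013 and -0.019 for Atp5b (beta, 0.781 and 0.771) and 0.032 and 0.063 for Atp5c1 (gamma, 0.651 and 0.485). In the F test Atp5e, the epsilon subunit (adjusted p = 0.029), and Atp5o, the stalk protein OSCP (adjusted p = 0.0392), were called. Both were highest at 24 h in both arms, Atp5e at 10.15 and 9.76 against 9.27 and 9.03 at 4 h. Atp5e lost its call without the 4 or 24 h pair, and Atp5o without the 4, 24 or 120 h pair.

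The 11 assembly factors, which build complexes I and II but are not part of them, held 0 genes past the slope or F tests. At unadjusted p under 0.05 they held 1 positive slope in the controls and 2 with adiponectin, against 16.3% and 11% of all genes. In the F test 3 of the 11 lay under that level, against 25.4% of all genes. The median slopes of the assembly factors were 0.032 and 0.052.

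The second question was whether the genes differed between adiponectin and control cultures. With the time points as a block, 0 of the 93 rose and 0 fell in limma, where 2.05% of all genes rose and 0.371% fell. Without the adjustment 8 had a lower and 0 a higher value at p under 0.05, against 4.21% and 5.91% of all genes, and no alternative run called any of the 93. The mean differences (treated minus control) ran from -0.24 for Ndufa4 to 0.18 for Ndufa5, with a median of -0.079 (SD over the 5 pair medians 0.10) against 0.014 for all genes. They were negative for 75 genes (80.6%, against 43.9% of all genes). Among genes at or above the median level the shares were 87.5% and 51.8%. By group the medians were -0.082 in complex I (29 of 34 negative), -0.042 in complex II (3 of 4), -0.15 in complex III (8 of 8), -0.088 in complex IV without the restricted isoforms (10 of 11) and -0.10 in complex V (17 of 17). The restricted isoforms had a median of 0.057, with 2 of 8 negative.

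The lowest adjusted p belonged to Uqcrh, at -0.22 ± 0.13 (SD, n = 5 pairs, limma adjusted p = 0.277), lower in 5 of 5 pairs. Its treated value was below the control of its own time by 0.36 at 4 h and by 0.04 at 120 h. In the other complexes the largest mean differences were -0.24 ± 0.33 for Ndufa4 (limma adjusted p = 0.516), -0.20 ± 0.24 for Ndufa6 (0.511), -0.17 ± 0.28 for Atp5g1 (0.667) and -0.092 ± 0.20 for Sdha (0.847). For all 4 of these the spread over pairs was larger than the mean. Ndufa4 read 0.20 higher with adiponectin at 10 h and Atp5g1 0.20 higher at 4 h. A steadier gene was Ndufv3, a complex I subunit, at -0.19 ± 0.06 and lower in 5 of 5 pairs (limma adjusted p = 0.322).

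In 5 of 5 pairs 15 genes (16.1%) were lower with adiponectin, against 4.40% of all genes, and 1 was higher, against 6.32%. At or above the median level 13 of 80 (16.2%) were lower in 5 of 5 pairs, against 7.05% of such genes. The 15 were Ndufa3, Ndufa9, Ndufa13, Ndufb2, Ndufb7, Ndufb10, Ndufv1 and Ndufv3 of complex I, Uqcr10, Uqcrh and Uqcrq of complex III, Cox6b2 and Cox6c of complex IV, and Atp5a1 and Atp5d of complex V. Ndufa5 was the higher one, at 8.35, 8.45, 8.58, 8.47 and 8.47 against 8.30, 7.92, 8.45, 8.43 and 8.32 in the controls, where the 10 h control array, the dimmest of the 10, gave the widest gap.

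Pair by pair, the differences were unevenly spread over time. At 4 h 83 genes (89.2%) were lower with adiponectin, against 43.1% of all genes, with a median of -0.18 against 0.04. At 10 h 46 genes (49.5%) were lower against 35.4%, with medians of 0.002 and 0.072. At 24 h 50 genes (53.8%) were lower against 48.1%, at -0.034 and 0.012. At 72 h 78 genes (83.9%) were lower against 53.0%, at -0.19 and -0.010. At 120 h 46 genes (49.5%) were lower against 56.5%, at 0.012 and -0.031. With 1 array per arm and time there is no test within a time. Genes of higher signal differed from all genes here, so members and background were also compared at or above the median level, a choice made after the data were seen: 92.5% against 62.8% were lower at 4 h and 87.5% against 48.5% at 72 h. The shares were 50% against 34.4% at 10 h, 53.8% against 64.3% at 24 h and 51.2% against 37% at 120 h, so at 24 and 120 h the order of members and background turned with the choice of background.

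**Figure D4:**
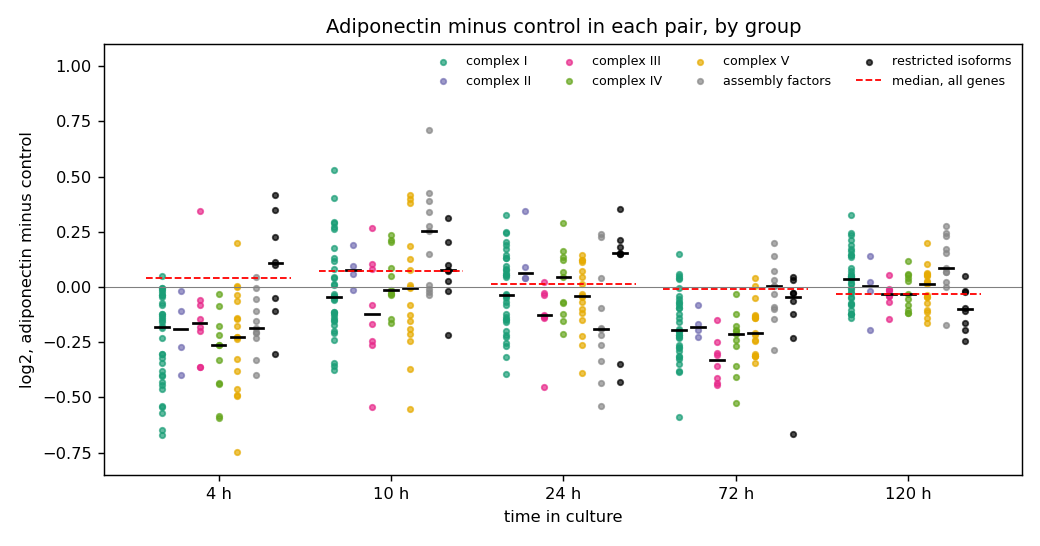
Log2 difference of adiponectin minus control for each of the 93 genes (points) in each pair, by group, with the group median (black bars) and the median of all 19938 genes (red dashes). At 4 and 72 h the medians of the 5 complexes lie below 0, while all genes lie at 0.04 and -0.010.

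At 4 h most genes of every complex were lower with adiponectin. All 11 general complex IV genes, all 4 of complex II and 33 of 34 of complex I were lower. The differences at 4 h ran from -0.75 for Atp5md, a small membrane subunit of the ATP synthase, to 0.42 for Cox7b2. Atp5md read 11.37 on that treated array and between 12.06 and 12.32 on the other 9. Ndufab1 (-0.67), Ndufs5 (-0.65) and Cox4i1 (-0.60) were the next lowest. The other 10 genes were higher: Uqcrc1 (0.35), Atp5g1 (0.20), Atp5j2 (0.0040), Ndufa5 (0.052), Sdhaf1 (0.044) and 5 of the 8 restricted isoforms, Cox7b2, Cox6a2 (0.35), Cox8c (0.23), Ndufa4l2 (0.11) and Cox4i2 (0.10). The restricted isoforms had a median of 0.11 at 4 h. At 72 h complex III stood lowest, with all 8 genes below the control and a median of -0.33, among them Uqcr10 (-0.44), Uqcr11 (-0.44) and Uqcrq (-0.41). Cox7a1 had the lowest 72 h difference of all, at -0.66, followed by Ndufb6 (-0.59) and Ndufa4 (-0.53). The assembly factors followed at 4 h (10 of 11 lower) and not at 72 h, where 5 of 11 were lower with a median of 0.005. At 72 h all 11 osteoclast markers were lower with adiponectin as well, with a median of -1.11, and 10 were lower at 120 h (-0.33), 7 at 24 h (-0.26), 2 at 10 h (0.19) and 4 at 4 h (0.15). Of the 12 neutrophil markers 11 were lower at 4 h (median -0.27), 10 at 10 h (-0.20), 11 at 24 h (-0.27), 9 at 72 h (-0.37) and 7 at 120 h (-0.061). Of the 9 proliferation markers 9 were lower at 4 h (median -0.24), 3 at 10 h (0.08), 9 at 24 h (-0.26), 7 at 72 h (-0.07) and 0 at 120 h (0.32). Other marker lists were lower at 4 h and at 72 h in these counts: adipocyte 4 and 6 of 6, erythroid 4 and 4 of 5. Macrophage markers were lower in 8 and 3 of 11, stromal and osteoblast in 8 and 4 of 12. B cell markers were lower in 5 and 4 of 8, T and NK cell in 3 and 3 of 9, progenitor in 3 and 4 of 6. The part of any of these cells in the subunit values was not tested.

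Whether the difference between the arms changed with time was tested as a treatment by log2 hours term. It called 0 of the 93 genes and 0% of all genes. Without the adjustment 2 of the 93 had a positive and 3 a negative term at p under 0.05, against 3.11% and 6.72% of all genes. The largest terms by complex were 0.13 per doubling for Ndufb3 (limma adjusted p = 0.499), 0.063 for Sdhd (0.617), 0.042 for Uqcrh (0.683), -0.099 for Cox7b2 (0.499) and 0.11 for Atp5md (0.519). So the slopes that passed in the adiponectin arm and not in the control arm were not shown to differ between the arms. Ndufb3 read 8.26, 8.40, 8.63, 8.38 and 8.43 with adiponectin and 8.58, 8.59, 8.86, 8.23 and 8.10 in the controls, so its treated values were lower up to 24 h and higher from 72 h on.

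Other genes of the pathway gave few calls in the slope tests, where 4.64% of all genes rose in the controls and 4.15% with adiponectin. The F test, which called 14.4% of all genes, called 2 of 31 further assembly factors, 2 of 14 electron carriers and 1 of 16 biogenesis regulators. It also called 1 of 9 mitochondrial carriers, 5 of 77 mitochondrial ribosome genes, 0 of 17 citrate cycle genes and 2 of 12 glycolysis genes. Of 31 further assembly factors 1 rose with adiponectin over time, Uqcc2, a complex III assembly factor (0.24 ± 0.06, adjusted p = 0.0342), and none differed between the arms. Among 14 genes of ubiquinone synthesis, cytochrome c and related electron carriers, Coq8a, needed for ubiquinone synthesis, rose in the controls (0.36 ± 0.07, adjusted p = 0.0164). Of 16 regulators of mitochondrial biogenesis 1 rose, Ppargc1b, a coactivator of respiratory genes, in the controls (0.37 ± 0.06, adjusted p = 0.0113). It read 8.56, 8.25, 8.90, 9.88 and 10.11 there and 8.73, 8.99, 8.94, 9.10 and 9.79 with adiponectin, where its slope of 0.17 did not pass (adjusted p = 0.167). At 72 h Ppargc1b was 0.78 lower with adiponectin and at 10 h 0.74 higher, and its mean difference was -0.033 ± 0.57 (limma adjusted p = 0.98). The regulators Nrf1, Gabpa, Esrra and Tfam did not pass in either arm (adjusted p from 0.0765 to 0.983).

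Of 9 mitochondrial carriers and uncoupling proteins, Slc25a4, the ADP/ATP carrier that supplies complex V, rose in both arms (0.16 ± 0.04 and 0.18 ± 0.04, adjusted p = 0.0424 and 0.0341). It read 11.12, 10.90, 11.44, 11.77 and 11.69 in the controls and 10.93, 10.81, 11.08, 11.45 and 11.75 with adiponectin, lower with adiponectin up to 72 h. Of 77 mitochondrial ribosome genes 1 rose in the controls and 3 with adiponectin, Mrps6 in both arms (0.24 ± 0.06 and 0.26 ± 0.06, adjusted p = 0.0271 and 0.0226). Of the ribosome genes 66 of 77 (85.7%) were lower with adiponectin at 4 h, against 43.1% of all genes. At 72 h 48 of 77 (62.3%) were lower, against 53.0%, and the contrast of the 2 times was not tested. The ribosome genes had a median mean difference of -0.011. All 17 citrate cycle genes were lower with adiponectin at 4 h and 16 of 17 at 72 h, against the same 43.1% and 53.0%. The tests called 0 of the 17. Without the adjustment 2 of the 17 were lower and 0 higher at p under 0.05, against 4.21% and 5.91% of all genes. The 12 glycolysis genes had a median mean difference of 0.090, with 9 of 12 positive and 0 past the test of the arms. At unadjusted p under 0.05 4 of the 12 were higher and 0 lower, against 5.91% and 4.21% of all genes.

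Acod1, which makes itaconate, an inhibitor of succinate dehydrogenase, was 1 of 2 inhibitors of the chain looked at, and it was higher with adiponectin. It read 13.72, 13.32, 13.22, 11.78 and 11.22 with adiponectin and 10.05, 10.36, 10.46, 9.22 and 7.98 in the controls. Over time it ended lower than it began in both arms, and its fall with adiponectin passed the slope test (-0.51 per doubling). The arms did not overlap, and the mean difference was 3.04 ± 0.43 (SD, n = 5 pairs, limma adjusted p = 1.14e-06). Nos2, whose product nitric oxide can inhibit complex IV, was higher by 0.97 ± 0.79 in 5 of 5 pairs and did not pass (limma adjusted p = 0.056).

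Probes limit some of these values. Of the 18 genes with several probe sets, 17 had slopes of the same sign in each arm for all of them and 16 had mean differences of the same sign. Atp5l is represented by 6 probe sets with near-equal values, with control slopes of 0.13 to 0.14. Many subunit genes have near-identical processed copies in the genome, and arrays cannot assign their signal among copies, so the values of such genes are uncertain as to locus. Another 6 probe sets that list a member among several symbols were not used.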

How the data were processed

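RNA of 10 cultures, 1 control and 1 treated at each of 5 times, was measured on Affymetrix arrays. The deposited values are log2 signals per probe set. Affymetrix Expression Console, Partek and RMA, which corrects background, normalizes quantiles and summarises probes, are named per the submitters' processing notes, with order and versions not given in the sources used here. This quantile normalization removes much of a shift shared by most genes. The table held 35556 probe sets, of which 21789 had 1 gene symbol, 1621 several and 12146 none, and the probe set with the highest mean stood for each of 19938 genes. RefSeq gave no newer symbol, and 91 IDs lay outside its table.

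limma 3.58.1 in R 4.3.3 (lmFit, eBayes, two-sided) was fitted on all genes, with Benjamini-Hochberg adjusted p under 0.05. The arms were compared with time as a block (4 residual degrees of freedom) and with a treatment by log2 hours term (3). Pairs follow the labelled times. Slopes had an intercept and slope per arm (6), and the F test had time as a factor beside treatment (4). Both counted the arrays of a time as independent. Means carry the SD over 5 pairs and slopes the SE.

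Named genes were the largest past the threshold in each complex, test and direction (up to 3), the largest where none passed, and a set of core subunits and isoforms, and others named for single values were chosen after those values were seen. The members and lists were chosen with earlier results of these data known. The tests were run on simulated data with independent noise for each gene and array. Such data hold no shift that genes of an array share, so that case was not checked. No filter on dim genes was used. Alternatives were another scaling, a filter on dim genes, another variance prior, the mean over probe sets, other time terms and each pair left out.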

Additional observations from a re-analysis of the deposited data

Results flagged for a closer look

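Cox8b, a muscle-type isoform of cytochrome c oxidase subunit VIII, differed in the 24 h pair by 0.35 (adiponectin minus control, log2), far from its other pairs, which ran from -0.12 to -0.02. The 24 h values were 7.65 with adiponectin and 7.30 in the control. Of 51 sets of 5 differences looked at (single genes and group medians), this was the 1 that stood apart, and chance gives about 1 in 20.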

How the results depend on the processing

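The comparison of the arms and its change with time called 0 of the 93 genes under every alternative run, with or without the replicate block, the median difference ran from -0.11 to -0.047, and the number of negative means from 63 to 80. Slope counts moved. In the controls the genes that rose (2) became 6 with quantile normalization repeated and 0 with the arm fitted alone, and ranged from 0 to 6 with 1 pair left out. Those that fell (0) became 1 with arrays centred on their medians and 2 with time in hours, and ranged from 0 to 1. With adiponectin the genes that rose (6) became 15 with quantile normalization repeated, 10 with median centring and 3 with the arm fitted alone, and ranged from 0 to 8 with 1 pair left out. The 1 that fell ranged from 0 to 1. The F test's 13 became 7 with median centring and 26 with a trended robust prior, and ranged from 3 to 14. The slopes that passed (Uqcr10 and Uqcr11 in both arms, and Ndufb9, Sdhd, Cox4i1, Cox6a2 and Atp5g2 with adiponectin) kept their sign under the alternatives run. The direction of other named genes was not followed across alternatives. Leaving out a time also leaves fewer arrays and a shorter range. Signal over background was not used here, so small differences of dim genes are the least certain.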
